A study of Homo sapiens with 6 samples.

Results

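Beta satellite (RepeatMasker family BSR/Beta) loci of human chromosome 19 were taken as every row of the deposited satellite table with that family and chromosome 19 itself as its location. The rule found 383 loci, out of 9566 satellite loci of 24 families and 1984 beta satellite loci in all, and 1601 beta satellite loci lay elsewhere, 1282 of these on chromosome Y. No measured value entered the rule, though it was set with earlier results of these data known. The study followed satellite RNA and DNA in SW620, a human cell line of metastatic colon cancer, as the cells moved from a dish into a mouse and back. SW620 cells were sampled in 2D culture in RPMI1640 with 10% FBS (the culture before), as a subcutaneous xenograft in a Nu/Nu mouse, a strain without a thymus and so without most T cells (the xenograft), and in 2D culture in the same medium afterwards (the culture after). All groups were of this 1 line, with no engineered allele and no drug given in the labels. RNA was purified with TRIzol and DNA with a DNeasy kit, and both were read by Helicos single-molecule sequencing, which reads molecules without PCR. Each of the 6 groups was 1 library, so no difference below has a replicate check, and no test between conditions was possible.

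Beta satellite is a tandem repeat of a short monomer that lies in the pericentromeric heterochromatin of several human chromosomes and on the short arms of the acrocentric ones. On chromosome 19 it is interspersed with clusters of KRAB zinc-finger genes on the short arm beside the centromere, so its blocks sit between genes rather than in a single long array. Many zinc-finger proteins of that class bind transposable elements and other repeats and bring in the machinery of heterochromatin.

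The levels were reads per 1000000 reads of the library (RPM), from which whole reads were recovered. Each read that a locus was credited with is a hit. The RNA libraries held 157326, 1077925 and 240046 reads in the culture before, the xenograft and the culture after, and the DNA libraries 3080853 to 4355426. A single hit was thus worth 6.36, 0.928 and 4.17 RPM in RNA, in that order, and 0.230 to 0.325 RPM in DNA. A locus with 0 hits could hold up to 19.1, 2.78 and 12.5 RPM in RNA, with 3 reads as the upper limit that a count of 0 allows. Intervals in parentheses are 95% and cover counting error only (exact Poisson for a level, exact conditional binomial for a ratio, a log-scale interval for a ratio of ratios). Fewer cells carrying an RNA and less of it per cell cannot be told apart in such bulk libraries, and the part of mouse cells in the xenograft was not tested. The sources used here do not say how mouse reads were treated.

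The 383 loci spanned 3.23 Mb, from 21149903 to 24380589 on chromosome 19 (hg19), and together covered 342.7 kb. They were 16 to 4868 bases long, with a median of 628, and 185 were annotated on the plus and 198 on the minus strand. The median gap between neighbours was 123 bases and 337 of 382 gaps were 1 kb or less, while 7 gaps were over 100 kb, the longest 512 kb. Joining neighbours across gaps of up to 1 kb gave 46 arrays, of which 18 held 10 or more loci, the largest held 30 and 6 were single loci. The next alpha satellite locus, the family of the centromere proper, began 4.68 kb past the last beta satellite locus, and 107 of the 110 alpha satellite loci of chromosome 19 lay beyond it. The beta satellite loci therefore ran up to the first of these alpha satellite loci from the short-arm side. That locus, at 24385267 to 24385552, is shorter than the median of 3710 bases of the 110. Where the long alpha satellite loci begin, and on which side of the centromere the 107 lie, was not examined.

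Hits were spread thinly over most of these loci. Of the 383, 301 had a hit in at least 1 library and 82 had none, and 293 had a DNA hit against 122 with an RNA hit. RNA was seen at 24 loci in the culture before, 108 in the xenograft and 33 in the culture after, numbers that also follow the depth of the 3 libraries. Of the 122 loci with RNA, 98 had 1 to 3 hits over all RNA libraries and 11 had 10 or more. Only 8 loci had RNA hits and no DNA hit, and 12 had hits in all 6 libraries. A read with several matches may be counted at each, and identical values are a sign of that: of 52 chromosome 19 loci with 10 or more hits, 3 had the same values in all libraries as another beta satellite locus and 13 the same as some other satellite locus. Of the 22 with 20 or more hits, 0 did, so the loci with most hits were not exact copies of one another in the table.

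Summed over the 383 loci, RNA was at 317.8 RPM in the culture before (50 hits, 236 to 419), 726 RPM in the xenograft (783 hits, 676 to 779) and 1025 RPM in the culture after (246 hits, 901 to 1161). The xenograft stood 2.29-fold above the culture before (1.72 to 3.11) and the culture after 3.22-fold above it (2.37 to 4.46). From the xenograft to the culture after the ratio was 1.41 (1.22 to 1.63) as deposited, but scaling over satellite loci turned it to 0.884 by TMM and 0.537 by size factors, and size factors from loci with hits in all RNA libraries set it at 1.06. The deposited scale therefore decides whether chromosome 19 beta satellite RNA stood higher or lower after the xenograft than in it. The higher levels against the culture before kept their direction under all 3 scalings.

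DNA over the same loci was at 382.5 RPM in the culture before (1666 hits, 364 to 401), 684 RPM in the xenograft (2210 hits, 656 to 713) and 856 RPM in the culture after (2636 hits, 823 to 889). The ratio to the culture before was 1.79 in the xenograft (1.68 to 1.91) and 2.24 in the culture after (2.10 to 2.38) as deposited, but 0.218 and 0.285 under TMM, since scaling over satellite loci shifts every DNA log2 ratio against the culture before by −3.15 to −2.62. The culture after was 1.25-fold above the xenograft (1.18 to 1.32), a direction that no scaling turned.

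Set against beta satellite elsewhere, the chromosome 19 loci moved less from the culture before to the xenograft, and a ratio of ratios between the sets does not depend on scaling. Beta satellite RNA elsewhere was at 394, 2775 and 858 RPM in the culture before, the xenograft and the culture after, so its rise into the xenograft was 7.04-fold against 2.29-fold on chromosome 19, a ratio of ratios of 0.325 (0.222 to 0.475). On the return to culture the chromosome 19 loci stood 4.56 times higher relative to the loci elsewhere (3.73 to 5.58), which had dropped to 0.309 times the xenograft level. From the culture before to the culture after, RNA was 3.22-fold higher on chromosome 19 and 2.18-fold higher elsewhere. The ratio of ratios was 1.48, with an interval that held 1 (0.977 to 2.24), and it depended on single loci. It was 1.83 without locus A below (1.18 to 2.84). Without locus G below, chromosome 19 was 2.18-fold higher, the same as elsewhere, and no ratio of ratios was computed. Against loci elsewhere under 5 kb it was 1.36 (0.888 to 2.09), so an excess on chromosome 19 was not shown. In DNA, beta satellite elsewhere went from 473 to 4278 and 4221 RPM, and the chromosome 19 ratio of xenograft to culture before was 5.06-fold smaller than theirs (ratio of ratios 0.198, 0.183 to 0.214). From the xenograft to the culture after, DNA went by 1.25-fold on chromosome 19 and 0.987-fold elsewhere, a ratio of ratios of 1.27 (1.19 to 1.35). Chromosome 19 held 44.7% of all beta satellite DNA hits in the culture before, 13.8% in the xenograft and 16.9% in the culture after. Its share of beta satellite RNA hits was 44.6%, 20.7% and 54.4%.

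Much of that contrast came from few long loci elsewhere. Chromosome 19 has no beta satellite locus of 5 kb or more, whereas 20 loci elsewhere do, up to 14512 bases, and 15 of these are on unplaced or random contigs. Those 20 went from 50.8 to 1858 and back to 45.8 RPM in RNA and from 194.5 to 3092 and 2930 RPM in DNA. The 1581 loci elsewhere under 5 kb went from 343 to 917 and 812 RPM in RNA and from 278.5 to 1186 and 1291 RPM in DNA. Against these shorter loci, the ratio of ratios for RNA in the xenograft over the culture before was 0.856, with an interval that held 1 (0.576 to 1.27). It was 1.59 for RNA in the culture after over the xenograft (1.29 to 1.96) and 0.420 for DNA in the xenograft over the culture before (0.384 to 0.460). Alpha satellite of chromosome 19, the neighbour on the centromere side, had 165, 2851 and 267 RPM of RNA, and against it the chromosome 19 beta satellite stood 15.1 times higher in the culture after relative to the xenograft (11.3 to 20.1).

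**Figure D1:**
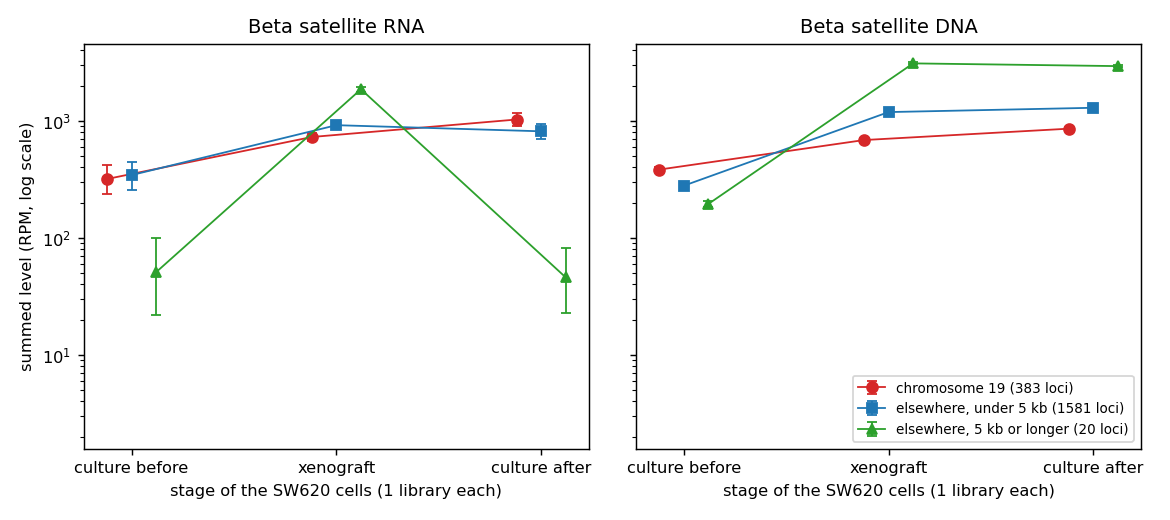
Summed level of beta satellite loci in RPM on a log axis, in RNA (left) and DNA (right), at each stage with 1 library per point and 95% exact Poisson intervals. Chromosome 19 (383 loci) rises from 317.8 to 726 and 1025 RPM in RNA, while the 20 loci of 5 kb or longer elsewhere peak at 1858 RPM in the xenograft.

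RNA was then set against DNA of the same stage. Over the chromosome 19 loci the RNA level was 0.831 times the DNA level in the culture before (0.614 to 1.10), 1.06 times in the xenograft (0.978 to 1.15) and 1.20 times in the culture after (1.05 to 1.37). Beta satellite elsewhere had 0.833, 0.649 and 0.203, so that the sets were at a ratio of 0.997 before, 1.64 in the xenograft (1.50 to 1.79) and 5.89 after it (4.87 to 7.12). Against loci elsewhere under 5 kb the ratio was 0.674 in the culture before (0.456 to 0.997), 1.37 in the xenograft (1.23 to 1.53) and 1.90 in the culture after (1.57 to 2.31). Without locus A these were 0.943 (0.621 to 1.43), 1.09 (0.960 to 1.23) and 2.26 (1.86 to 2.75). The values of the culture before and the xenograft thus rested on that locus. Without all of loci A to H below, the ratios were 1.10 (0.628 to 1.92), 0.742 (0.623 to 0.883) and 1.02 (0.744 to 1.40). An excess in the culture after was therefore not shown beyond loci A to H. Those loci were chosen by their RNA hits, which favours less RNA without them. No such ratio was computed without locus G alone. The value of 1.20 in the culture after rested on a single locus, since it was 0.761 without it (locus G below).

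Most of the signal lay at few loci, 8 of which had the most RNA hits over the 3 RNA libraries and are called A to H by position. Locus A lies at 22073355 to 22075704, B at 22115310 to 22116681, C at 23493367 to 23495049 and D at 23706744 to 23707521. Locus E lies at 23966213 to 23967830, F at 24161613 to 24163357, G at 24246058 to 24246714 and H at 24369409 to 24372838. D, F and H are annotated on the plus strand and the other 5 on the minus strand. The 8 cover 13.6 kb of the 342.7 kb and held 66.0%, 77.1% and 79.3% of the RNA hits in the culture before, the xenograft and the culture after, a share that their choice favours. They also held 79.1%, 57.6% and 61.3% of the DNA hits, which did not enter the choice. Of the 5 loci with the most DNA hits, 4 (A, D, F and H) are among them.

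Locus A is 2350 bases long and lies 923.5 kb from the first locus. Its RNA was at 63.6 RPM in the culture before (10 hits), 283 RPM in the xenograft (305 hits) and 12.5 RPM in the culture after (3 hits). It was thus highest in the xenograft and lowest after it, and it held 39.0% of all chromosome 19 beta satellite RNA hits in the xenograft, beside 10 of 50 hits before xenografting. At A the xenograft stood 4.45-fold above the culture before (2.39 to 9.38) and the culture after 22.6-fold below the xenograft (7.67 to 110). Of the 10 chromosome 19 loci at 20 RPM or more in either library, A alone was at least 2-fold lower in RNA in the culture after than in the xenograft, as were 69.2% of all 429 satellite loci at that minimum.

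DNA at A was nearly level. It was at 163.7 RPM in the culture before (713 hits), 155 RPM in the xenograft (502 hits) and 145 RPM in the culture after (447 hits), with ratios to the culture before of 0.949 (0.845 to 1.07) and 0.886 (0.786 to 0.999) as deposited and 0.116 and 0.113 under TMM. In the culture before, A ranked 9 of 9566 satellite loci by DNA level, and 6 of the 462 with 10 or more hits by hits per kb. Its RNA was 0.388 times its DNA in the culture before (0.185 to 0.718), 1.82 times in the xenograft (1.57 to 2.10) and 0.0861 times in the culture after (0.0177 to 0.253). The locus beside it in the same array had 0 hits in all 6 libraries.

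Locus G is 657 bases long and lies 3096 kb from the first locus, on the centromere side. Its RNA was at 25.4 RPM in the culture before (4 hits), 110 RPM in the xenograft (119 hits) and 387 RPM in the culture after (93 hits). The level was highest in the culture after, the opposite of A, and there it ranked 1 of all 9566 satellite loci, and 1 of the 72 with 10 or more hits by hits per kb (141.6). G was 4.34-fold higher in RNA of the xenograft than of the culture before (1.65 to 16.2). From the xenograft to the culture after it went up 3.51-fold (2.65 to 4.64), which put it 15.2-fold above its first level (5.76 to 57.1). TMM left 2.20-fold of the step after the xenograft and size factors 1.34-fold, so no scaling turned it.

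DNA at G stood apart from its RNA. It was at 19.1, 13.0 and 18.5 RPM in the culture before, the xenograft and the culture after (83, 42 and 57 hits), and the ratio of culture after to culture before was 0.971 (0.681 to 1.38), or 0.124 under TMM. RNA over DNA at G was 1.33 in the culture before (0.355 to 3.55), 8.49 in the xenograft (5.93 to 12.4) and 20.9 in the culture after (14.9 to 29.7). G belongs to an array of 30 loci with 231 RNA hits, 216 of them at G and 15 at the other 29. In DNA the same array had 259 hits, 182 at G and 77 at the others.

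Loci C, D and E had the pattern of G between the xenograft and the culture after, at lower levels and with overlapping intervals of the ratio. RNA at C, 1683 bases long, was at 50.8, 29.7 and 95.8 RPM in the culture before, the xenograft and the culture after (8, 32 and 23 hits). D, 778 bases long, had 6.36, 28.8 and 79.1 RPM (1, 31 and 19 hits), and E, 1618 bases long, had 19.1, 26.9 and 91.7 RPM (3, 29 and 22 hits). All were highest in the culture after, at 3.23-fold (1.80 to 5.69), 2.75-fold (1.47 to 5.03) and 3.41-fold (1.87 to 6.14) the xenograft level, which TMM left at 2.02, 1.72 and 2.13 and size factors at 1.23, 1.05 and 1.30. Against the culture before, the interval of C held 1 (0.814 to 4.87), D was at 12.5 (1.98 to 517) and E at 4.81 (1.44 to 25.1).

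DNA did not set C, D and E in the same order. C went from 6.89 to 24.8 and 31.2 RPM (30, 80 and 96 hits), 3.59-fold from the culture before to the xenograft (2.34 to 5.67), but 0.438 under TMM. D went from 40.2 to 35.9 and 61.3 RPM (175, 116 and 189 hits), and E from 14.9 to 12.7 and 19.8 RPM (65, 41 and 61 hits). Both had xenograft ratios to the culture before with intervals that held 1, at 0.893 (0.700 to 1.14) and 0.850 (0.561 to 1.28), and TMM set both near 0.1 (0.109 and 0.104). Per length, D stood out in the culture before: with 224.9 DNA hits per kb it ranked 8 of the 462 loci with 10 or more hits.

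For B, F and H, the RNA intervals between the xenograft and the culture after held 1. B had 19.1, 21.3 and 37.5 RPM of RNA (3, 23 and 9 hits), F had 19.1, 26.0 and 49.99 RPM (3, 28 and 12 hits), and H had 6.36, 34.3 and 58.3 RPM (1, 37 and 14 hits). The ratios of culture after to xenograft were 1.76 (0.716 to 3.94), 1.92 (0.891 to 3.91) and 1.70 (0.849 to 3.22), and size factors turned all of them to below 1 (0.669, 0.733 and 0.647).

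In DNA these loci showed a difference beyond counting error. H, at 3430 bases the longest of the 8, went from 16.3 to 82.6 and 142.8 RPM of DNA (71, 267 and 440 hits), 5.07-fold higher in the xenograft than before (3.89 to 6.68) as deposited but 0.618 under TMM. A further 1.73-fold separated the culture after from the xenograft (1.48 to 2.02), and the ratio of culture after to culture before, 8.76 (6.81 to 11.4), remained above 1 at 1.12, 1.42 and 1.03 under the 3 scalings. B went from 3.90 to 14.5 and 22.7 RPM (17, 47 and 70 hits) and F from 37.7 to 55.4 and 83.1 RPM (164, 179 and 256 hits), with ratios to the culture before in the culture after of 5.82 (3.39 to 10.6) and 2.21 (1.81 to 2.70), or 0.742 and 0.281 under TMM. H lies 3220 kb from the first locus, near the centromere end of the beta satellite loci.

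**Figure D2:**
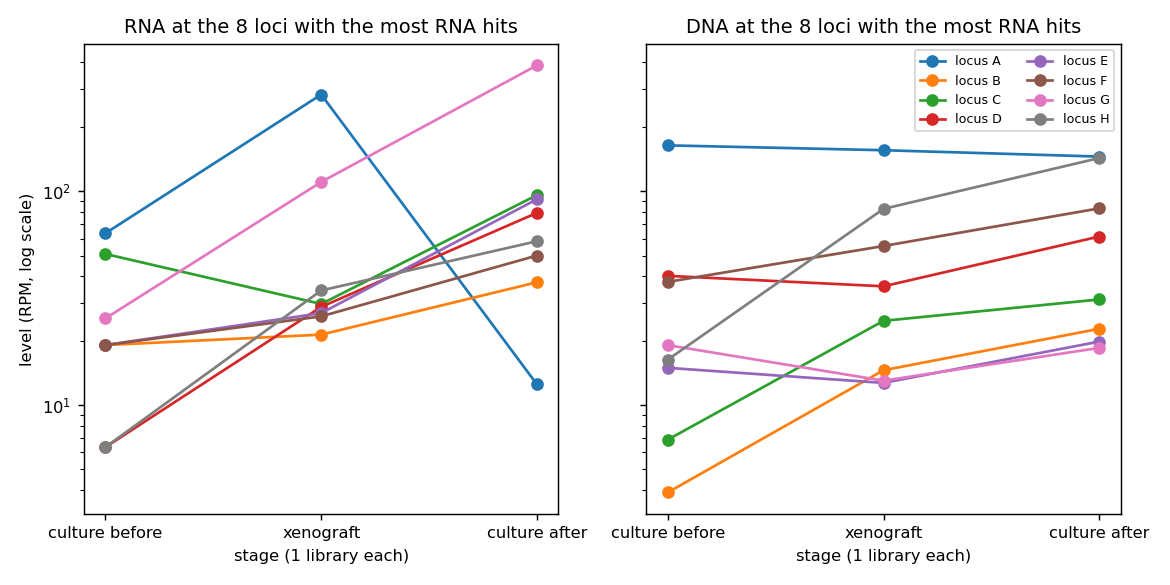
Level of RNA (left) and DNA (right) in RPM on a log axis at loci A to H, with 1 library per point and no error drawn. RNA at A peaks at 283 RPM in the xenograft and is at 12.5 RPM after it, while G climbs to 387 RPM; in DNA, A is nearly level and H climbs from 16.3 to 142.8 RPM.

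Outside the 8, 3 loci had 10 or more RNA hits. The longest locus of all, 4868 bases at 23640699 to 23645566, had 6.36, 9.28 and 12.5 RPM of RNA (1, 10 and 3 hits) and 8.04, 43.0 and 61.3 RPM of DNA (35, 139 and 189 hits). Its DNA was 5.35-fold higher in the xenograft than before (3.67 to 7.99), or 0.653 under TMM. The locus at 24079259 to 24081021 had 6.36, 7.42 and 33.3 RPM of RNA (1, 8 and 8 hits) and 10.3, 37.1 and 54.2 RPM of DNA (45, 120 and 167 hits).

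The third was nearly without DNA. This locus of 713 bases at 23200747 to 23201459 had 0, 4.64 and 37.5 RPM of RNA (0, 5 and 9 hits) and 3, 2 and 3 DNA hits. Its RNA was 8.08-fold higher in the culture after than in the xenograft (2.43 to 30.7). Against the culture before, with 0 hits, the ratio was 1.97 if 3 reads are taken for that library, and the lower 95% limit was 1.29. The 3 scalings shift every log2 RNA ratio of that comparison by −0.93 to −0.25, so this limit is for the deposited scale only. The count test given below did not call the locus in that comparison. RNA over DNA in the culture after was 38.5 (9.61 to 221), above the 20.9 of G, though with overlapping intervals.

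The other 2 of the 3 longest loci, of 4362 bases at 22090091 to 22094452 and 3436 bases at 22224386 to 22227821, had 0, 3 and 1 and 0, 2 and 0 RNA hits. Their DNA hits were 4, 12 and 3 and 1, 7 and 5. First by position, the locus at 21149903 to 21152000, had 0 RNA hits and 1, 4 and 4 DNA hits, and the last, 24380110 to 24380589, had 0 hits in every library. Loci of 1500 bases or longer (81 loci) held 3.02 RNA hits per kb in the xenograft, those from 600 to under 1500 bases (117) 1.95, those from 300 to under 600 bases (75) 0.329 and those under 300 bases (110) 0.833. In the culture after, the longer classes had 0.588 hits per kb for 1500 bases or longer and 1.20 from 600 to under 1500 bases. Single loci set much of these values: A held 305 of the 535 xenograft RNA hits of the longest class, and G held 119 of the 221 xenograft hits and 93 of the 136 hits in the culture after of the class from 600 to under 1500 bases.

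Without the 8 loci, the remaining 375 had 108, 166 and 212.5 RPM of RNA in the culture before, the xenograft and the culture after (17, 179 and 51 hits). The interval of xenograft over culture before held 1, at 1.54 (0.933 to 2.70), as did that of culture after over xenograft, at 1.28 (0.918 to 1.76), which all 3 scalings turned to below 1. Their DNA was at 79.9, 290 and 331 RPM (348, 936 and 1020 hits), 3.63-fold higher in the xenograft than before (3.20 to 4.11), against 1.30-fold at the 8 (1.21 to 1.41); under TMM these were 0.442 and 0.159. Against loci elsewhere under 5 kb, the ratio of ratios for DNA in the xenograft over the culture before was 0.851 (0.741 to 0.978), nearer to 1 than the 0.420 of all 383. For RNA it was 0.575 (0.326 to 1.02), farther from 1 than the 0.856 of all 383. The 8 were chosen by their RNA hits, so leaving them out lowers the RNA of the 375, while the loci elsewhere keep theirs.

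From the xenograft to the culture after, loci A and G moved the RNA sum in opposite ways, while both raised it from the culture before to the xenograft. Without A, the chromosome 19 loci had 254, 443 and 1012 RPM of RNA, 1.74-fold higher in the xenograft than before (1.26 to 2.47) and 2.28-fold higher in the culture after than in the xenograft (1.95 to 2.67), though 0.869 under size factors. Without A and G they had 229, 333 and 625 RPM, and the ratios were 1.46 (1.03 to 2.11) and 1.88 (1.54 to 2.28), the latter 0.715 under size factors. DNA without A was 2.42-fold higher in the xenograft than before (2.23 to 2.62), or 0.295 under TMM.

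In the arrays with 10 or more RNA hits, most of these hits lay at a single locus. Of the 13 arrays of more than 1 locus with 10 or more RNA hits, 11 had over 50% of them at the locus with the most, and the median share was 87.8%. An array can reach that minimum through its top locus alone, and the arrays of A to H are among the 13, so the filter favours a high share. At the low end, an array of 25 loci at 23226066 to 23252259 had 15 RNA hits with at most 2 at any locus, and another of 26 loci at 22505981 to 22535119 had 10 RNA hits, 4 at the highest. The array of D, with 7 loci, had all of its 51 RNA hits and 480 of its 498 DNA hits at D. The array of H, with 11 loci, had 52 of 55 RNA hits and 778 of 804 DNA hits at H. In the arrays of D and H, neighbours were therefore far from equal in hits, in DNA as in RNA. DNA was more evenly spread in the arrays at 23226066 and 22505981, where the locus with the most DNA hits held 22.2% and 20.6% of them. The lengths of the loci were not taken into account.

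**Figure D3:**
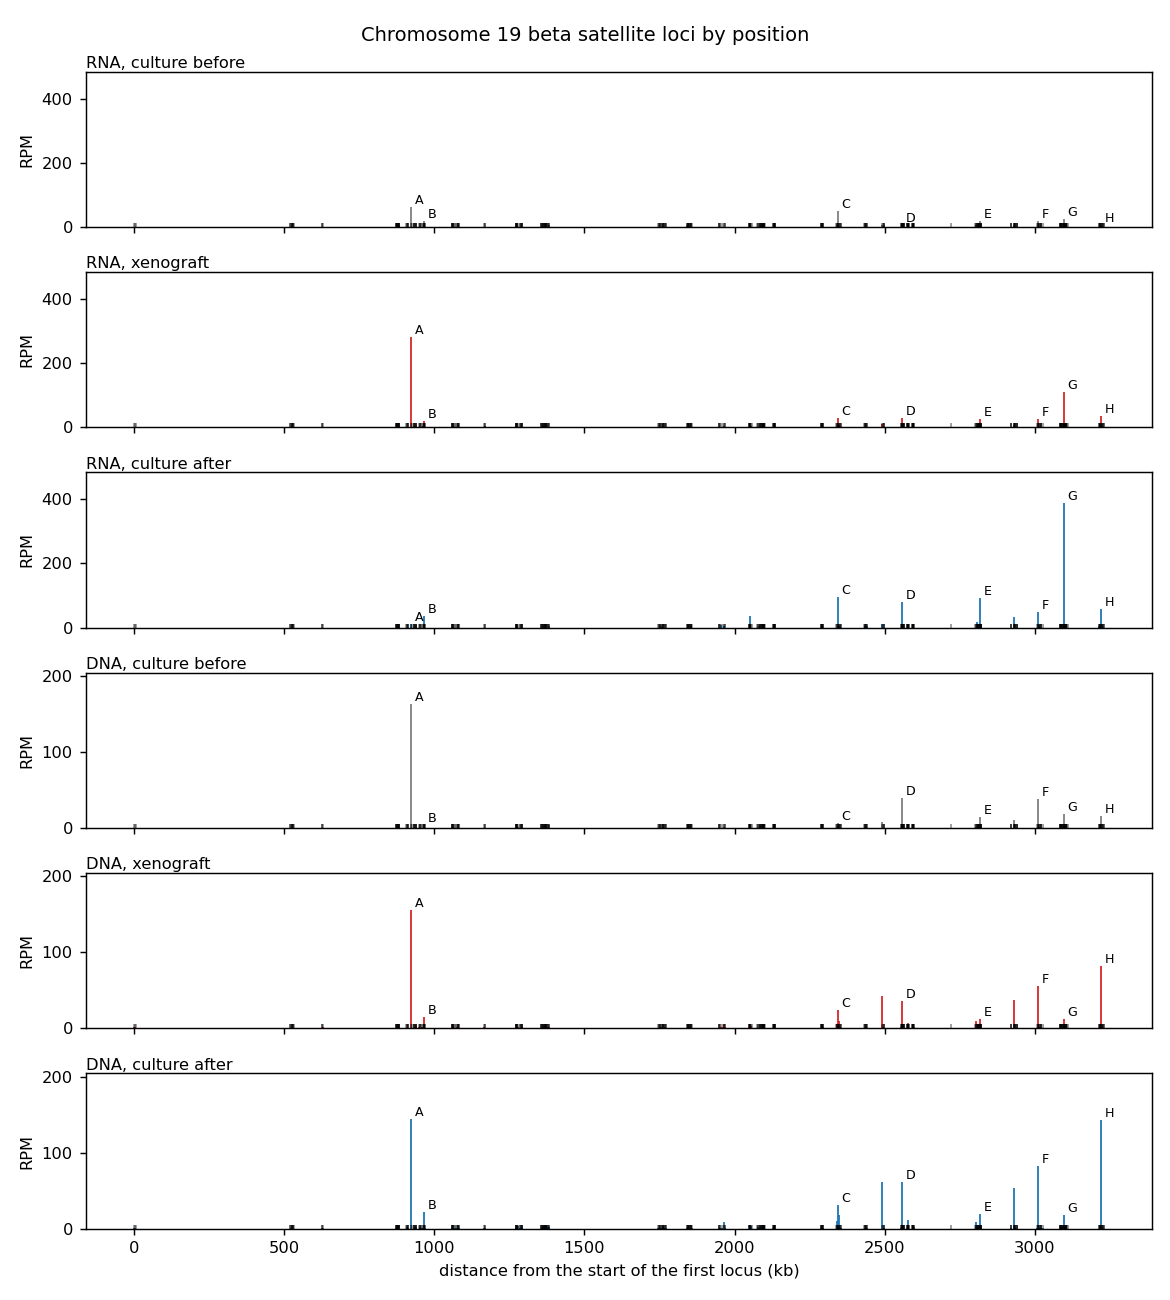
Level in RPM of each of the 383 loci against its distance from the start of the first locus in kb, with a panel per library, ticks on the base line for every locus and letters at loci A to H. Most loci are at or near 0 in every panel; RNA is highest at A (283 RPM) in the xenograft and at G (387 RPM) in the culture after.

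By position, RNA on the deposited scale was lower after the xenograft around locus A and higher towards the centromere. The lower value rested on A, so opposite directions along the 3.23 Mb were not shown beyond that locus. Loci were summed in windows of 500 kb, numbered 1 to 7 from the first locus towards the centromere. Window 3 (22000001 to 22500000, 85 loci), which holds A and B, had 101.7, 340 and 58.3 RPM of RNA (16, 367 and 14 hits) and a ratio of culture after to xenograft of 0.171 (0.0927 to 0.291). That value rested on A, without which the 84 other loci gave 0.797 (0.378 to 1.53). Window 7 (24000001 to 24500000, 73 loci), the last towards the centromere, had 63.6, 196 and 554 RPM (10, 211 and 133 hits). Its ratio of culture after to xenograft was 2.83 (2.26 to 3.53), or 1.95 without G (1.31 to 2.86). Scaling by size factors set window 7 at 1.08 and, without G, at 0.744.

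The windows between had fewer hits. Window 5 (23000001 to 23500000, 80 loci) had 63.6, 80.7 and 167 RPM of RNA and a ratio of culture after to xenograft of 2.06 (1.38 to 3.04), though 0.786 under size factors. Window 6 (23500001 to 24000000, 74 loci) had 76.3, 86.3 and 237 RPM and a ratio of 2.75 (1.94 to 3.87), 1.05 under size factors. Windows 1, 2 and 4 (3, 14 and 54 loci) had at most 18 RNA hits in any library, too few to show a direction.

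In DNA, the windows differed in how far the xenograft stood above the culture before on the deposited scale. A difference from RNA in this was not shown. RNA of window 3 rested on A, without which it had 6 hits in the culture before and 62 in the xenograft. Windows 5, 6 and 7 had only 10, 12 and 10 RNA hits in the culture before. Of the 7 windows, window 3 had the smallest ratio of xenograft to culture before, 1.20 (1.08 to 1.33), which was 4.15 without A (3.10 to 5.64). The other windows with over 100 hits in each DNA library were at 3.47 (2.76 to 4.40) for window 5, 1.72 (1.49 to 1.98) for window 6 and 2.37 (2.09 to 2.69) for window 7, and TMM turned all of these to below 1 (0.147 to 0.507 with and without A). Window 7 had the largest of the 7 ratios of culture after to xenograft, 1.50 (1.36 to 1.66), from 213 to 321 RPM.

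**Figure D4:**
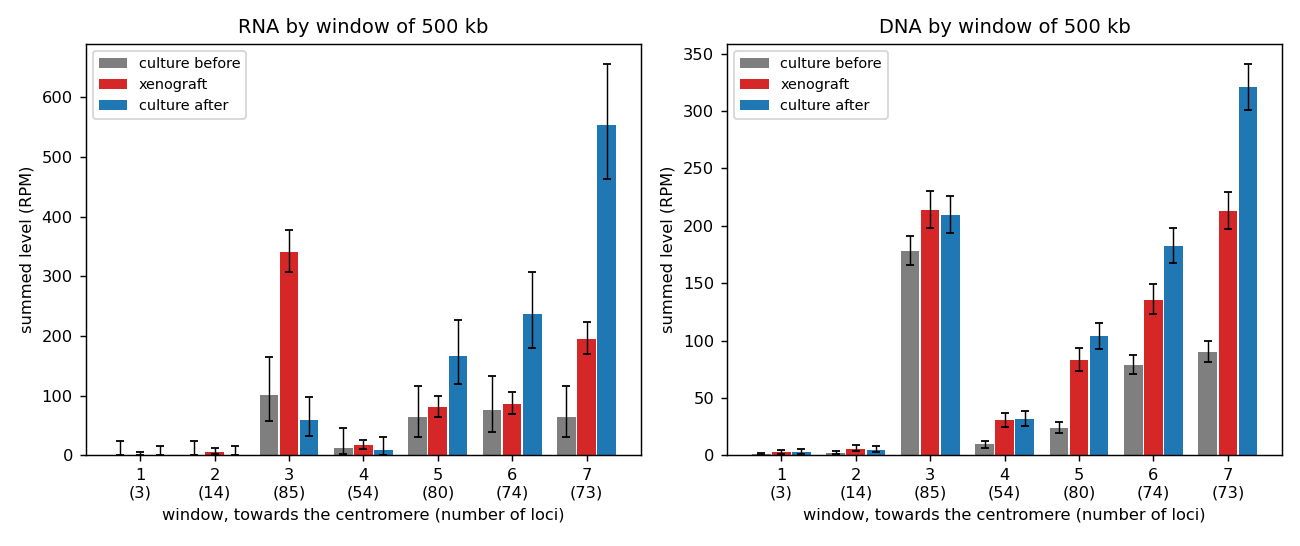
Summed level in RPM of RNA (left) and DNA (right) in 7 windows of 500 kb from the first locus towards the centromere, with the number of loci in parentheses, 1 library per bar and 95% exact Poisson intervals. RNA in window 3 is highest in the xenograft (340 RPM) and in windows 5 to 7 in the culture after (167, 237 and 554 RPM).

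By annotated strand, plus-strand loci had 82.6, 152 and 279 RPM of RNA and minus-strand loci 235, 574 and 746 RPM, with A and G both on the minus strand. Whether the authors counted reads by strand was not stated in the labels, so these values do not tell which strand was transcribed.

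Single loci were also counted by size, as at least 2-fold apart on the log2(RPM + 5) scale among loci at 20 RPM or more in either library, a scale that understates the change of low loci. In RNA, 4 of 8 chromosome 19 loci (A, D, G and H) were higher in the xenograft than before and 0 lower, where 89.1% of all 377 satellite loci at that minimum were higher and 1.06% lower. D and H, with 1 hit each in the culture before, reached the minimum only in the xenograft. Their intervals held 1, at 4.52 (0.754 to 184) and 5.40 (0.911 to 219). In the culture after over the xenograft, 6 of 10 were higher (C, D, E, G and the loci at 23200747 and 24079259) and 1 lower (A), where 18.2% were higher and 69.2% lower over all satellite loci. The loci at 23200747 and 24079259 reached the minimum only in the culture after, where fewer hits suffice, and A only in the xenograft. The filter favours the calls made for such loci. Under TMM the members split into 3 higher and 1 lower, and under size factors into 1 and 1. Shares over all satellite loci were computed on the deposited scale only, so these 2 splits have no background beside them. In the culture after over the culture before, 7 of 10 were higher and 1 lower, near the 71.7% and 7.59% over all loci. Of the 7, G alone reached the minimum in the culture before as well. The others (D, E, F, H and the loci at 23200747 and 24079259) passed only through the culture after, so the filter favours a higher call for them. The median log2 ratio of the chromosome 19 loci was 0.99, 1.43 and 1.88 in these comparisons, beside 2.98, −2.67 and 1.75 over all satellite loci at the same minimum. Loci that passed through only 1 of the libraries enter these medians too.

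In DNA, 4 of 7 chromosome 19 loci (C, H and those at 23640699 and 24079259) were higher in the xenograft than before and 0 lower, where 89.6% and 2.03% of all 444 loci were. All 4 reached the minimum only in the xenograft, so the filter favours a higher call for them. Under TMM the count was 0 higher and 8 lower of 11. Between the culture after and the xenograft 0 of 8 differed 2-fold, as did 0 of all 473 loci. In the culture after over the culture before, 6 of 8 were higher and 0 lower, where 92.2% and 1.74% were, and TMM turned this to 0 higher and 6 lower of 11. Of the 6 higher as deposited, F alone reached the minimum in the culture before as well. Shares over all loci were not computed under TMM, so the TMM counts do not tell these loci from other satellite loci. Median log2 ratios of the chromosome 19 loci were 1.32, 0.50 and 1.62, beside 2.76, 0.08 and 2.75 over all loci.

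A count test on the recovered reads, an exact conditional binomial at an adjusted p of 0.05 (Benjamini-Hochberg over all satellite loci with a hit), which compares these libraries and not the conditions, was run beside the size rule. In RNA it called A and G higher in the xenograft than before, 2 of 115 tested members (background 3.69%). In the culture after over the xenograft it called 5 members higher (C, D, E, G and the locus at 23200747; background 1.18%) and A lower (background 4.85%). D and G were called higher in the culture after than in the culture before, 2 of 45 (background 4.32%), and 0 lower (background 0.341%). In DNA it called 32 of 247 members higher in the xenograft than before and 0 lower (background 43.8% and 0.563%). In the culture after, 24 of 250 were called higher and 1 lower than in the culture before (background 42.1% and 0.593%). D, F and H, or 3 of 281, were called higher in DNA of the culture after than of the xenograft (background 0.541%) and 0 lower (background 0.278%).

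Over the 383 loci, DNA hits ranked alike in the xenograft and the culture after (Spearman's rho 0.614) more than RNA hits did (0.426), and RNA and DNA hits of the xenograft ranked alike at 0.473. These are descriptions of loci that share libraries and lengths, many of them at 0. Over the 11 loci with 10 or more RNA hits, rho was 0.975 for DNA in the xenograft and the culture after. For RNA and DNA in the culture after it was −0.41, where A had much DNA and little RNA, and G the reverse. Over all 383 loci rho for RNA and DNA in the culture after was 0.314. The 11 were chosen by their RNA hits, so their value of −0.41 does not describe the loci as a whole.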

How the data were processed

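The table, deposited by the authors, gives levels in RPM for 9566 satellite loci of the hg19 RepeatMasker annotation in 6 libraries; the build is per the submitters' processing notes. Not given in the sources used here were the aligner, the rule for reads with several matches, strand handling and which reads make up each total. In every library 100% of the values came out as whole numbers of reads, to within 0.01 reads, once divided by the smallest nonzero value, so whole reads were recovered, and 0 columns lacked a sample. The members, lists and named loci were chosen with earlier results of these data known. Loci named singly were the 8 with the most RNA hits, the 5 with the most DNA hits, the 3 longest, the first and last, and the 3 highest and 3 lowest log2(RPM + 5) ratios per comparison among members at 20 RPM or more. Single arrays, and the neighbour of locus A, were chosen after their values were seen. A planned grouping of members under 1 Mb apart gave 1 group, so windows of 500 kb and arrays joined across 1 kb were added after seeing the data. The 95% intervals cover counting error only and, where loci share reads, are too narrow. Alternatives were TMM (edgeR 4.0.16), size factors of the poscounts type (DESeq2 1.42.0), size factors from loci with hits in all 3 libraries of a kind, other minimums and pseudocounts, identical loci counted once, left-out loci and an exact conditional binomial count test. Other software was Python 3.11.15, SciPy 1.17.1, pandas 2.3.3, NumPy 2.4.6, matplotlib 3.10.9 and R 4.3.3.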

Additional observations from a re-analysis of the deposited data

How the results depend on the processing

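Comparison 1 is the xenograft over the culture before, comparison 2 the culture after over the xenograft, and comparison 3 the culture after over the culture before. Scaling had the widest effect. For the summed DNA level, TMM, size factors, and size factors from loci with hits in all 3 libraries gave 0.218, 0.292 and 0.201 in comparison 1 and 0.285, 0.362 and 0.263 in comparison 3, all reversed from the deposited scale. For summed RNA, size factors moved comparison 1 to 5.04 and those from shared loci to 1.60. Comparison 2 in RNA was at 0.884, 0.537 and 1.06, and comparison 3 went to 1.79 under TMM and 1.70 under size factors from shared loci. TMM shifted the log2 ratios by −0.17, −0.67 and −0.85 in RNA and −3.04, 0.06 and −2.97 in DNA. Poscounts size factors shifted them by 1.14, −1.39 and −0.25 and by −2.62, −0.01 and −2.63, and those from shared loci by −0.51, −0.42 and −0.93 and by −3.15, 0.07 and −3.09. The cause of the differences between scalings was not tested.

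Without the locus with the most hits in the 2 libraries compared, summed RNA moved to 2.28 in comparison 2 and 2.18 in comparison 3, and summed DNA to 2.42, 1.34 and 3.25. Without the 8 loci with the most RNA hits, RNA was at 1.54 in comparison 1 and 1.97 in comparison 3, and DNA at 3.63, 1.14 and 4.14. RNA over DNA in the culture before, the xenograft and the culture after became 1.16, 0.839 and 0.761 without the locus with the most RNA hits of that library, and 1.35, 0.573 and 0.642 without the 8; the values in the culture after crossed 1.

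Against beta satellite elsewhere, the ratio of ratios without A was 7.38 for RNA in the culture after over the xenograft, and 0.267, 1.36 and 0.364 for DNA. Counting identical loci once gave 0.160 in comparison 1 and 0.209 in comparison 3 of DNA. Against loci elsewhere under 5 kb the values were 0.856, 1.59 and 1.36 for RNA and 0.420, 1.15 and 0.483 for DNA. With the 8 also left out they were 0.575, 1.44 and 0.831 for RNA and 0.851, 1.05 and 0.894 for DNA.

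With no RPM minimum, 14 loci were 2-fold apart in RNA in comparison 1 (6 higher, 8 lower) and 25 in comparison 3 (12 higher, 13 lower), reversed in balance, and 10 in comparison 3 of DNA. TMM gave 4 in comparison 2 of RNA, and 8 and 6 in comparisons 1 and 3 of DNA, all of the DNA loci lower. Size factors gave 7 and 2 in comparisons 1 and 2 of RNA, and 5 and 5, all lower, in comparisons 1 and 3 of DNA. Shares over all satellite loci were not computed with no minimum or under these scalings, so the counts describe the chromosome 19 loci alone. The count test gave 2 in each of comparisons 1 and 3 of RNA, and 32, 3 and 25 in DNA. A minimum of 10 RPM, a pseudocount of 1 RPM and identical members counted once moved no value beyond counting error or 1.5 times the count.

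Depth limits RNA most: the culture before had 50 hits over the 383 loci, so a locus there rests on at most 10 hits. No paired analysis was possible because each group is 1 library, and no replicate was there to leave out. Counting intervals hold no spread between cultures or animals.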
